A study of Mus musculus with 8 samples.

Results

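The striated muscle sarcomere genes were measured in striatum of R6/2 and wild-type mice as 48 listed genes, whose probes were found by gene symbol in the scanner files or in the authors' result table. They had 71 of the 55681 non-control probes and made up 48 of the 22892 genes that could be named. R6/2 is a transgenic model of Huntington's disease in which exon 1 of human huntingtin, with a long CAG repeat, is inserted into the mouse genome. The groups were 4 arrays of total RNA from striatum of 4-week-old male R6/2 mice and 4 arrays from 4-week-old male WT mice, hybridised in 1 colour (Cy3), with no treatment in either group; the strain background and the repeat length were not given in the sources used here. The labels do not say whether each array held a separate animal, so the p-values below cover only how far these arrays differ among themselves, which may be technical spread. The genes were listed with the R6/2 against WT difference on these same arrays in view. Their differences are therefore given as a description, and their counts and medians support nothing beyond these arrays.

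The sarcomere is the contractile unit of skeletal and heart muscle. Thick filaments of myosin heavy and light chains, held in register by myosin-binding protein C and the M-band, slide along thin filaments of actin on which troponin C, I and T sense calcium, and the thin filaments are anchored in the Z-disc by alpha-actinin. Calcium comes from the sarcoplasmic reticulum, where calsequestrin stores it, the ryanodine receptor releases it and the SERCA pump takes it back. Striatum is brain tissue with no striated muscle, made up mainly of GABAergic projection neurons.

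Not every gene's probe is printed, with Myh7 and Myh2 among those left out, and the Myh3 result was read from a brighter probe. Below are the probes read for Myh8, Myh7b, Tnnc1 and Tnnt2, and the dimmer tested probe of Myh3. All are given 5′ to 3′ with their positions on mm9 as the files give them; capitals in the Myh8 and Myh3 lines mark the bases that both probes share when laid side by side without gaps (29 of 48 aligned bases), the closest pair among the tested heavy chain probes.
Myh8 at chr11:67121925-67121984 (+): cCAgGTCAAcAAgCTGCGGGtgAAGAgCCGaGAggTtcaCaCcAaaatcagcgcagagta
Myh3 at chr11:66915107-66915166 (+): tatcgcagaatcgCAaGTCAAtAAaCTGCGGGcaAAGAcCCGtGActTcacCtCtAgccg
Myh7b at chr2:155459122-155459181 (+): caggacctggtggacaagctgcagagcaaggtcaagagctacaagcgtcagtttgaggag
Tnnc1 within chr14:32023360-32023776 (+): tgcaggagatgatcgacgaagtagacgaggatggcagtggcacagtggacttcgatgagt
Tnnt2 within chr1:137747976-137748288 (+): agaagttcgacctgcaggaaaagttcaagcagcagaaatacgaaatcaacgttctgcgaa
The Tnnc1 and Tnnt2 probes are 60 bases long but their positions span more than that on the genome. No tested heavy chain probe shared more than 60.4% of its aligned bases with another gene's probe, in the Myh8 and Myh3 pair just shown. Probes were laid only against each other and not against whole transcripts. This therefore does not show whether a probe also matches the transcript of another myosin.

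Signal is given throughout as a percent of each array's own 75th percentile signal over all non-control spots, so 100 means a spot as bright as that percentile; levels of different probes are not comparable with one another. Probes entered the test if the scanner software marked them well above background on 4 or more of the 8 arrays. By that rule 35 of the 48 genes were tested, against 73.7% of all named genes. On at least 1 array 42 genes were above background, on all 8 arrays 28 genes, and on none 6 genes: Actc1, cardiac alpha-actin; Actn3, the alpha-actinin of fast muscle; Myot, Myoz1 and Myoz2 of the Z-disc; and Myom2 of the M-band. The other 7 untested genes (Myh1, Mybpc2, Myl7, Mylk3, Xirp1, Ttn and Trdn) had their best probe above background on 1 to 3 arrays. All 4 R6/2 arrays detected 29 of the 48 genes, and all 4 WT arrays detected 32. No spot of these genes was saturated or left out as an outlier.

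**Figure D1:**
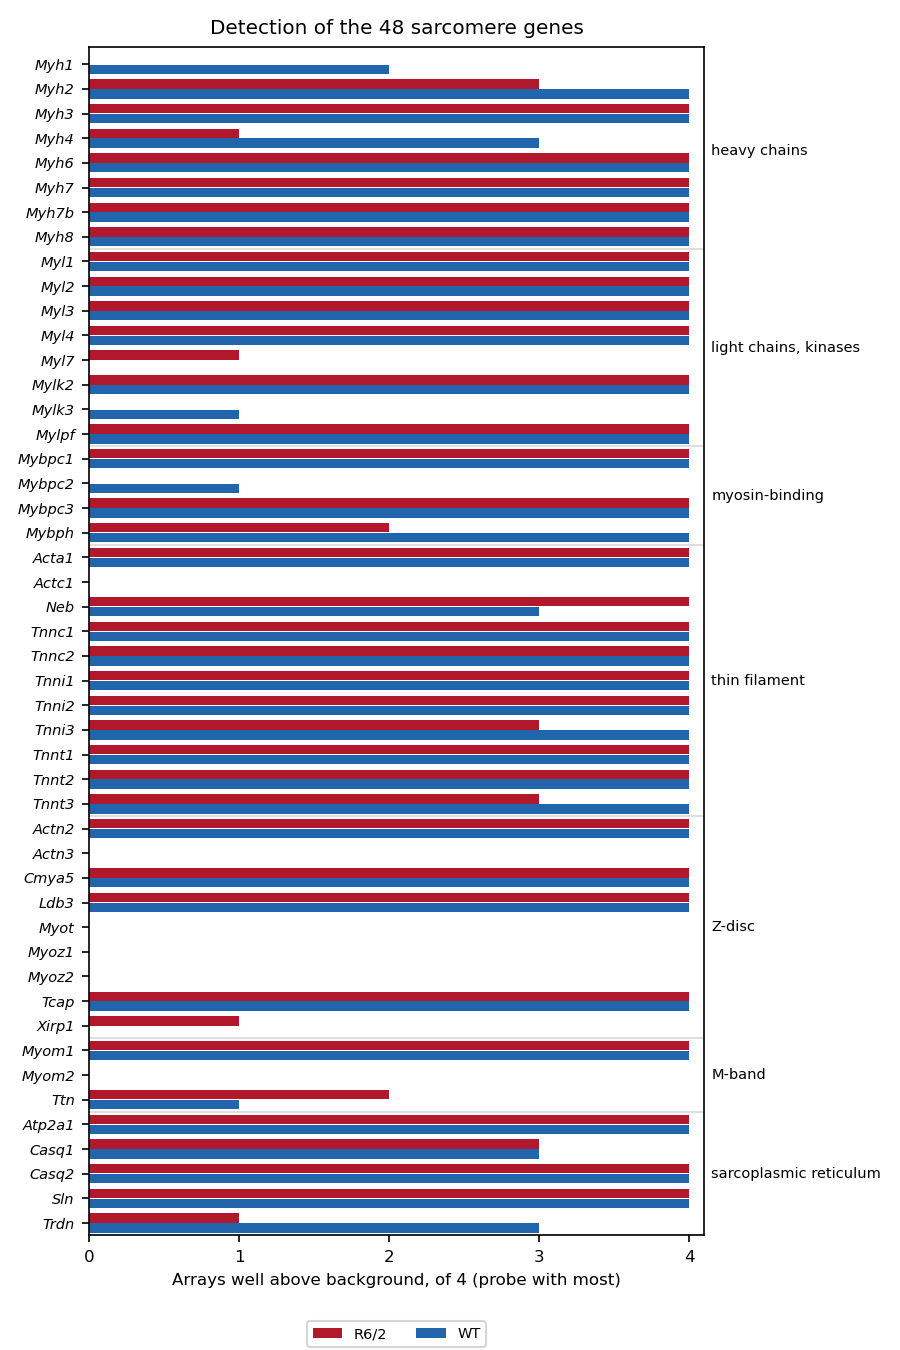
The plot gives, for each of the 48 genes, how many of the 4 R6/2 arrays (red, upper bar) and of the 4 WT arrays (blue, lower bar) were well above background for the probe that had most. 6 rows are empty in both genotypes, and 28 genes had a probe above background on all 8 arrays.

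In limma's fit over all 35121 tested probes, with Benjamini-Hochberg adjustment over all of them, 8 of the 35 tested genes fell at an adjusted p under 0.05 (Myl4, Mybpc3, Myh2, Myh7, Myh7b, Myh8, Cmya5 and Tnnc1), 1 rose (Tnnt2) and 26 did not pass. Over all 16881 genes tested, 1.95% were called (1.51% of probes), 1.49% as lower in R6/2 and 0.468% as higher. The difference was below 0 for 30 of the 35 genes, with a median of -0.46 on the log2 scale, against a median of 0.02 over all genes tested. In 16 genes all 4 R6/2 arrays lay below all 4 WT arrays and in 1 gene above; over all genes these shares were 6.72% and 7.81%. Since the genes were picked on this same contrast, nothing is read from these shares. The number called was 4 without R6/2 array 1, 3 without R6/2 array 2, 2 without R6/2 array 3, 5 without WT array 1 and 4 without WT array 2, and it was 8, 9 and 7 without R6/2 array 4, WT array 3 and WT array 4. Without the filter on dim probes 5 genes were called: Myl4, Mybpc3, Myh2, Myh7 and Myh1, which gained a call there, while Myh7b (adjusted p = 0.0530 in limma), Myh8 (0.0535), Cmya5 (0.0754), Tnnc1 (0.105) and Tnnt2 (0.0828) lost theirs. The median difference was -0.19 with normexp background correction in place of the scanner's processed signal. That correction adds an offset of 50 to every signal, which by itself shrinks the differences of dim probes. In RNA from whole tissue, fewer cells of a type and less RNA per cell cannot be told apart.

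**Figure D2:**
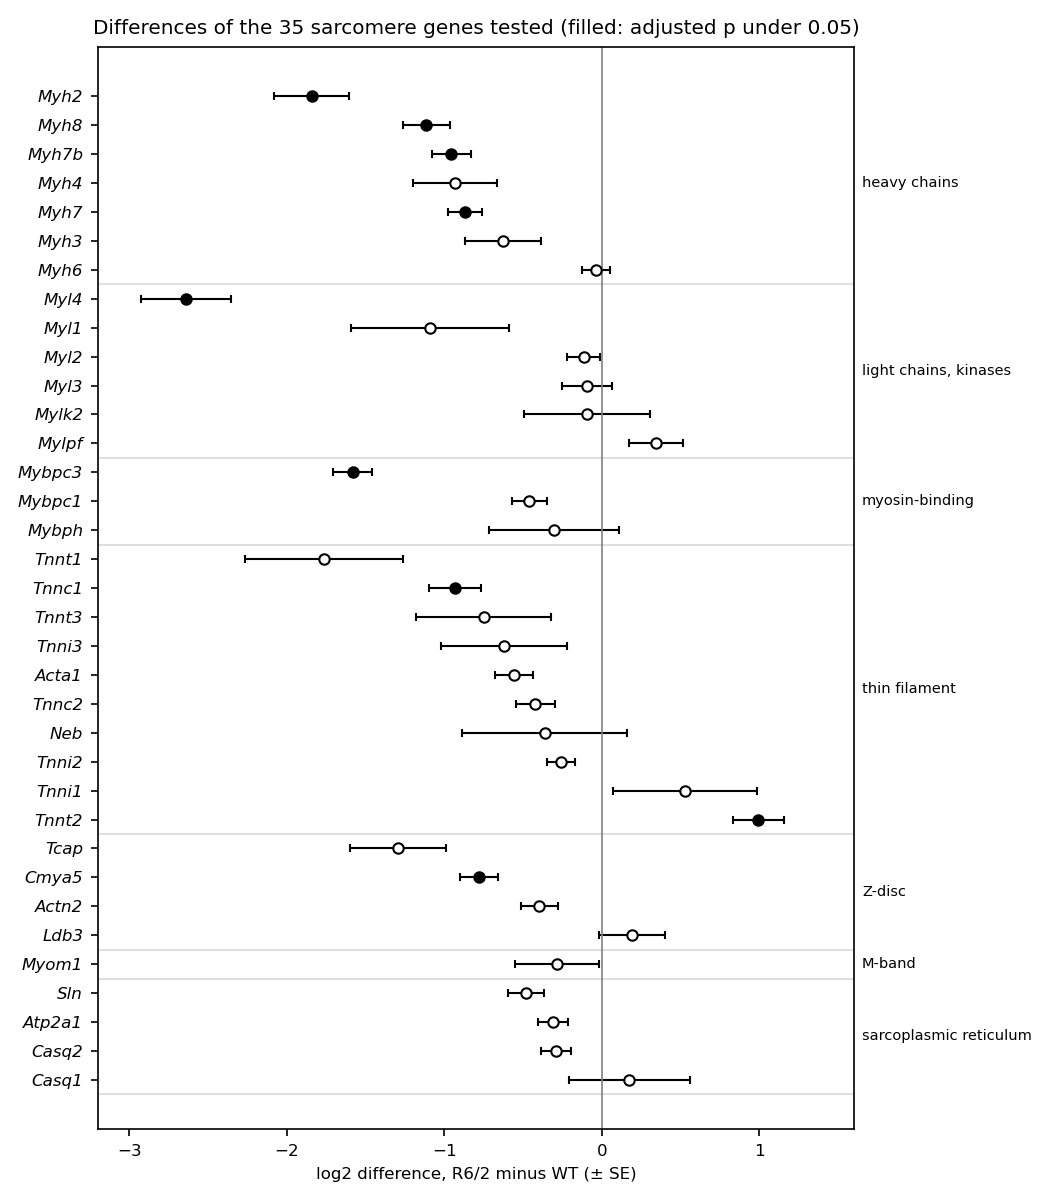
The plot gives the log2 difference, R6/2 minus WT, with its standard error for the 35 tested genes, grouped by their part of the sarcomere; filled points passed an adjusted p of 0.05. 8 filled points lie below 0, with Myl4 lowest at -2.64, and 1, Tnnt2, lies above at 0.99.

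Among the 8 myosin heavy chains, the motors of the thick filament, 4 of 7 tested genes fell, none rose, all 7 differences were below 0 and the median was -0.93. Myh7, a heavy chain of slow skeletal muscle and heart, gave 276, 258, 280.2 and 290.1 on R6/2 arrays 1 to 4, against 461, 541, 435 and 596 on WT arrays 1 to 4. The R6/2 arrays were close together and all lay below the lowest WT array; the log2 difference was -0.87 ± 0.11 (SE; limma adjusted p = 0.0164). Myh8, the perinatal heavy chain, gave 26.3, 22.0, 25.2 and 31.4 in R6/2 and 49.3, 56.8, 50.4 and 71.1 in WT, a log2 difference of -1.11 ± 0.15 (limma adjusted p = 0.0190). Its 3 other probes were above background on none of the 8 arrays, so the Myh8 value rests on the one probe printed above. Myh7b, a slow-tonic heavy chain also known from brain, gave 16.6, 19.7, 16.1 and 18.3 in R6/2 and 34.9, 42.3, 29.9 and 30.8 in WT, with no overlap and a log2 difference of -0.96 ± 0.13 (limma adjusted p = 0.0185).

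Myh2, the heavy chain of fast oxidative fibres, was dim: 3.79, 2.97, 2.45 and 3.82 in R6/2, of which 3 arrays were above background, and 10.3, 12.3, 8.10 and 16.8 in WT. Its log2 difference was -1.84 ± 0.24 (limma adjusted p = 0.0179), and -0.59 with normexp background correction. The offset of 50 in that correction by itself shrinks a dim probe's difference, so the size remains uncertain. Myh2 and Myh7 missed the threshold when R6/2 array 2, R6/2 array 3 or WT array 2 was left out, with adjusted p between 0.0537 and 0.0662. Myh7b missed it without R6/2 array 1, R6/2 array 3 or WT array 1 (0.0520 to 0.0647), and Myh8 without R6/2 array 1, 2 or 3 or WT array 2 (0.0520 to 0.0664).

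The other heavy chains did not pass. Myh3, the embryonic heavy chain, gave 28.9, 36.7, 17.8 and 37.0 in R6/2 and 39.2, 51.2, 38.5 and 51.4 in WT; every R6/2 array lay below every WT array, yet the R6/2 arrays ranged widely and the adjusted p was 0.238. The second Myh3 probe, printed above, gave -0.78 ± 0.26 beside -0.63 ± 0.24 for the brighter one. Myh4, the fastest heavy chain, gave 1.58, 1.77, 1.19 and 3.04 in R6/2 and 2.80, 3.75, 3.33 and 3.83 in WT, above background on 1 and 3 arrays (limma adjusted p = 0.130; 0.0436 without R6/2 array 4). Myh1, of fast fibres, was above background on 0 of 4 R6/2 arrays and 2 of 4 WT arrays. Read against a floor, it was 1.31-fold lower in R6/2. This fold and those below start from the mean of the brighter genotype, including any of its arrays not above background. That mean is compared with the higher of the dim signal and a floor. The floor is the lowest signal of any probe that the array called above background. A given probe can go undetected above that floor, so these folds are not strict bounds. Of the probes given such a fold, those of Myh1 and Trdn were not tested with the filter on dim probes, while that of Neb was. Myh6, a heavy chain of heart, gave 3.69, 3.27, 4.19 and 3.64 in R6/2 and 3.72, 3.58, 3.87 and 3.97 in WT, a difference of -0.04 ± 0.09.

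The genes for these heavy chains lie in tight groups: Myh3, Myh2, Myh1, Myh4 and Myh8 on chromosome 11 and Myh6 beside Myh7 on chromosome 14. Myh7 and Myh6 are adjacent, and their differences were -0.87 and -0.04, the latter on a dim probe (3.27 to 4.19). A second Myh6 probe, above background on 2 R6/2 arrays and 0 WT arrays, had overlapping genotypes and was not tested. Among the genes next to the 9 called ones that are outside the 48 (up to 2 on each side, 29 genes, of which Myh13 is also a myosin heavy chain and was not tested), 24 were tested and 0 were called, against 1.95% over all genes; Homer1, a postsynaptic scaffold near Cmya5, came closest with -0.56 ± 0.12 (limma adjusted p = 0.0626). At an unadjusted p under 0.05 the count was 2 of 24, against 19.0% of all genes.

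The myosin light chains stabilise and tune the heavy chain's lever arm. Myl4, the light chain of atrium and embryonic muscle, had the largest difference of all 35 tested sarcomere genes. It gave 127, 157, 95.9 and 150.1 in R6/2 striatum, against 905, 1103, 453 and 958 in WT striatum. The lowest WT array, number 3, was still well above the brightest R6/2 array. The log2 difference was -2.64 ± 0.29, or 6.24-fold lower in R6/2 (limma adjusted p = 0.0102), at chr11:104448441-104448500 on mm9. It passed under all 19 alternatives run on it, with differences between -2.92 and -2.49 and adjusted p between 0.00298 and 0.0417.

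No other light chain gene or light chain kinase passed, and the median over the 6 tested was -0.11. Myl1, of fast muscle, gave 6.35, 6.97, 4.58 and 7.68 in R6/2 and 13.3, 20.7, 25.7 and 4.55 in WT; WT array 4 was the lowest of all 8 arrays, and the difference of -1.09 ± 0.50 had an adjusted p of 0.318. Myl2 and Myl3, the ventricular light chains, differed by -0.12 ± 0.10 and -0.09 ± 0.16. Mylpf, the regulatory light chain of fast muscle, gave 6.31, 6.54, 6.99 and 10.3 in R6/2 and 5.48, 5.12, 6.99 and 5.83 in WT, 0.34 ± 0.17 (limma adjusted p = 0.355), on a probe that only the authors' table names Mylpf; the other Mylpf probe was above background on 1 array. Mylk2, the light chain kinase of skeletal muscle, was high on WT array 1 (16.4) and R6/2 array 2 (10.3) and lay between 4.63 and 6.75 on the other 6 arrays. Myl7 was above background on R6/2 array 1 alone (14.6), and Mylk3, the cardiac kinase, on WT array 2 alone (6.97).

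Myosin-binding proteins run around the thick filament and limit its motors. Mybpc3, the cardiac isoform of myosin-binding protein C, gave 6.21, 5.11, 5.10 and 5.72 in R6/2, against 15.1, 19.2, 14.0 and 18.4 in WT. The groups were far apart with little spread inside either, and the log2 difference was -1.58 ± 0.12 (limma adjusted p = 0.0061), the smallest p of the 35 genes. It passed in all 19 alternatives, although it was -0.67 with normexp background correction and the offset that this adds. In the authors' deposited table Mybpc3 was the one sarcomere probe with an adjusted p under 0.05 (0.0325, 2.97-fold down), among 144 of 55681 probes (0.259%); Myl4 followed there at 0.0564 and Myh7 at 0.0572. Mybpc1, the slow skeletal isoform, gave 7.29, 7.00, 7.97 and 8.48 in R6/2 and 11.4, 12.1, 10.0 and 8.97 in WT, with no overlap but an adjusted p of 0.0907. Mybph gave 1.90, 3.06, 2.25 and 8.06 in R6/2 and 3.32, 4.20, 3.98 and 4.45 in WT, and the fast isoform Mybpc2 was above background on 1 WT array only, with overlapping genotypes and no fold given.

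**Figure D3:**
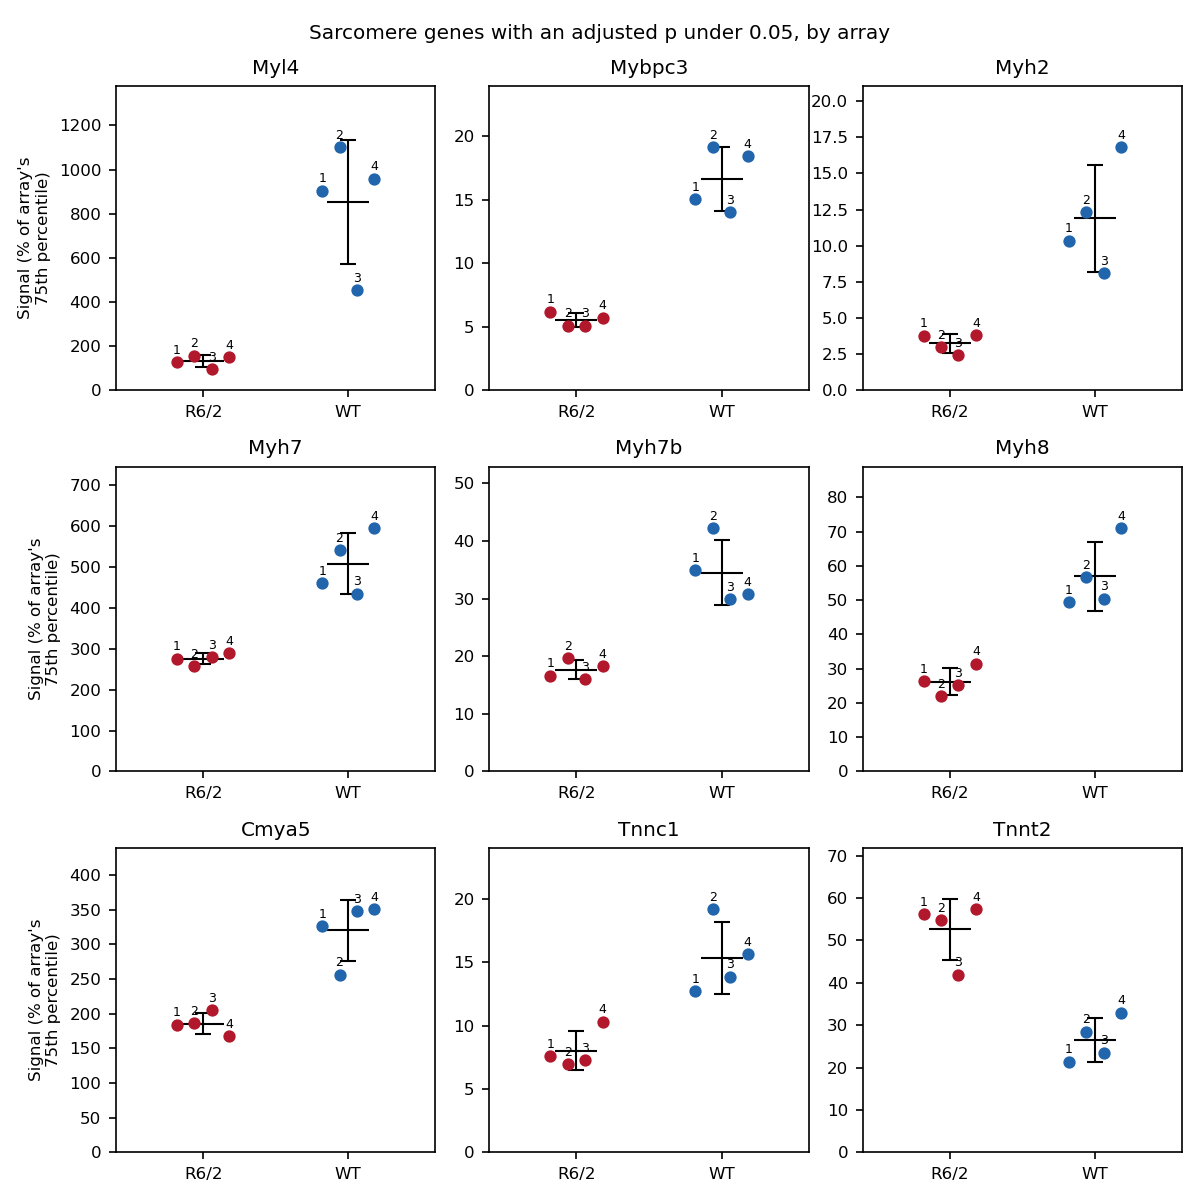
Each panel gives 1 called gene's signal as a percent of the array's 75th percentile on the 4 R6/2 arrays (red, left) and the 4 WT arrays (blue, right), numbered by array, with the mean and SD as black lines. The genotypes overlap in none of the 9 panels; Myl4 averaged 132 ± 27.7 in R6/2 and 855 ± 281 in WT (SD, n = 4 each), and Tnnt2, at the end, 52.6 ± 7.17 in R6/2 and 26.6 ± 5.19 in WT.

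Of 10 thin filament genes tested, Tnnc1 fell, Tnnt2 rose and 8 did not pass; 8 differences were below 0 and 2 above, and the median was -0.49. Tnnc1, the calcium-binding troponin C of slow muscle and heart, gave 7.60, 6.98, 7.28 and 10.3 in R6/2 and 12.7, 19.2, 13.9 and 15.6 in WT. No array crossed over, and the log2 difference was -0.93 ± 0.17 (limma adjusted p = 0.0425; 0.0702 with the replicate number as a block), and -0.45 with normexp background correction. Tnnt2, cardiac troponin T, which ties the troponin complex to tropomyosin, ran the other way, with 56.1, 54.8, 42.0 and 57.4 in R6/2 and 21.4, 28.5, 23.5 and 33.0 in WT. Every R6/2 array was above every WT array, 0.99 ± 0.16 on the log2 scale or 1.99-fold (limma adjusted p = 0.0307; 0.0508 with the replicate number as a block). Leaving out 1 array lost the Tnnc1 call in 7 of 8 cases (all but R6/2 array 4) and the Tnnt2 call in 7 of 8 (all but WT array 4), with adjusted p up to 0.115 and 0.101.

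The remaining troponins were dim or uneven. Tnnt1, the slow skeletal troponin T, gave 124, 76.2, 85.6 and 94.1 in R6/2 and 814, 316, 121 and 325 in WT; WT array 3 lay below the highest R6/2 array, and the difference of -1.76 ± 0.50 had an adjusted p of 0.130, or 0.0423 without WT array 3 (-2.23). A second Tnnt1 probe gave the same order of WT arrays at its lowest and highest, with 8.50, 4.56, 5.41 and 5.37 in R6/2 and 67.1, 25.1, 8.05 and 22.4 in WT. Prkcd, a kinase used as a marker of thalamic neurons, was also highest on WT array 1 and lowest in WT on array 3, with 37.9, 32.2, 36.3 and 35.7 in R6/2 and 484, 111, 59.2 and 73.2 in WT. The list of 15 thalamic and septal markers summed to 1298 to 1441 on R6/2 arrays and 1600.4 to 3648 on WT arrays, with 12 of 15 differences below 0, a median of -0.52 and 0 called by limma (5 at an unadjusted p under 0.05); its part in the Tnnt1 result was not tested.

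Tnnc2, the fast troponin C, gave 9.15, 6.16, 7.45 and 8.23 in R6/2 and 9.43, 11.0, 10.4 and 10.4 in WT, without overlap but with an adjusted p of 0.140. Acta1, skeletal alpha-actin, came close, at 31.5, 38.1, 37.5 and 36.6 in R6/2 and 51.4, 61.9, 43.9 and 55.5 in WT, -0.56 ± 0.12 (limma adjusted p = 0.0637); it passed under normexp correction (0.0388), array weights (0.0273), the mean of a gene's probes (0.0450), the filter on all 8 arrays (0.0496) and without WT array 3 (0.0388). Tnni1, the slow troponin I and next to Tnnt2 on chromosome 1, gave 55.4, 57.9, 39.2 and 35.7 in R6/2 and 37.6, 36.0, 12.2 and 62.8 in WT, 0.53 ± 0.46. The fast and cardiac troponins Tnni2, Tnni3 and Tnnt3 differed by -0.26, -0.62 and -0.75 with adjusted p of 0.196, 0.480 and 0.419.

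Neb, nebulin, the ruler of the thin filament, gave opposite signs on its tested probes. The brighter probe gave 3.71, 2.12, 2.71 and 5.87 in R6/2 and 2.81, 12.6, 3.0 and 3.24 in WT (-0.36 ± 0.52), with WT array 2 alone high. The other was above background on 4 of 4 R6/2 arrays and 0 of 4 WT arrays. It gave 3.12, 3.04, 5.56 and 6.42 in R6/2 and 3.02, 2.29, 1.77 and 2.18 in WT (limma adjusted p = 0.157). Read against the floor, it was 1.62-fold higher in R6/2. No direction is given for Neb.

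At the Z-disc, 4 of 9 genes were tested and 1 fell, with a median of -0.59. Cmya5, myospryn, a large protein that binds alpha-actinin and desmin, gave 184, 186, 205 and 168 in R6/2 and 326, 256, 348 and 351 in WT. The log2 difference was -0.78 ± 0.12 (limma adjusted p = 0.0276; 0.0598 with the replicate number as a block), and 6 of the 8 fits that left out 1 array missed the threshold (all but those without WT array 2 or WT array 3; up to 0.0879). Its second probe gave 33.8, 45.9, 40.6 and 33.7 in R6/2 and 48.2, 42.3, 41.1 and 51.5 in WT, -0.25 ± 0.13 (limma adjusted p = 0.359), so the probes of Cmya5 disagree in size; the mean of both gave -0.52.

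Tcap, telethonin, which caps titin at the Z-disc, gave 20.3, 23.8, 19.6 and 31.6 in R6/2 and 35.2, 81.3, 84.0 and 44.8 in WT. The arrays did not overlap, but the WT arrays spread so widely that -1.29 ± 0.31 had an adjusted p of 0.0823. Actn2, the alpha-actinin of the Z-disc, which is also found at dendritic spines, gave 301, 268, 281 and 219 in R6/2 and 333, 405, 326 and 340.2 in WT, -0.40 ± 0.12 (limma adjusted p = 0.145), and its second probe gave -0.36. Ldb3, a Z-disc adaptor, gave 0.19 ± 0.21 and 0.12 ± 0.09 on its 2 tested probes. Xirp1 was above background on 1 R6/2 array only.

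The M-band gene Myom1 gave 5.57, 6.86, 4.19 and 9.68 in R6/2 and 7.30, 7.53, 10.4 and 5.95 in WT, -0.29 ± 0.27 (limma adjusted p = 0.639). Titin, the spring that spans from Z-disc to M-band, had 4 probes and none above background on more than 3 arrays. 1 of them read 0.509, 0.480, 0.454 and 2.18 in R6/2 and 1.09, 33.3, 1.88 and 1.47 in WT, where WT array 2 stood alone.

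WT array 2 was the highest of the 8 arrays for 18 of the 56 sarcomere probes above background on at least 1 array, against 11.7% of all 41483 such probes. It was the highest by 2-fold or more over the next array for 6 of these probes, of Ttn, Neb, Tnnt3, Myl1, Mylk3 and Trdn, against 1.29% of all probes. Tnnt3 read 2.16, 3.14, 2.78 and 4.54 in R6/2 and 4.48, 12.5, 3.77 and 3.26 in WT. R6/2 array 4 was the highest for 10 of the 56, against 22% of all probes. WT arrays 1, 3 and 4 were the highest for 7, 6 and 11 probes, and R6/2 arrays 1 to 3 for 1, 1 and 2. Since the genes were picked on this contrast, WT arrays may lead more often than over all probes. Nothing is read from these shares. Leaving out WT array 2 moved the median of the 35 differences to -0.39, with 29 of 35 below 0.

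**Figure D4:**
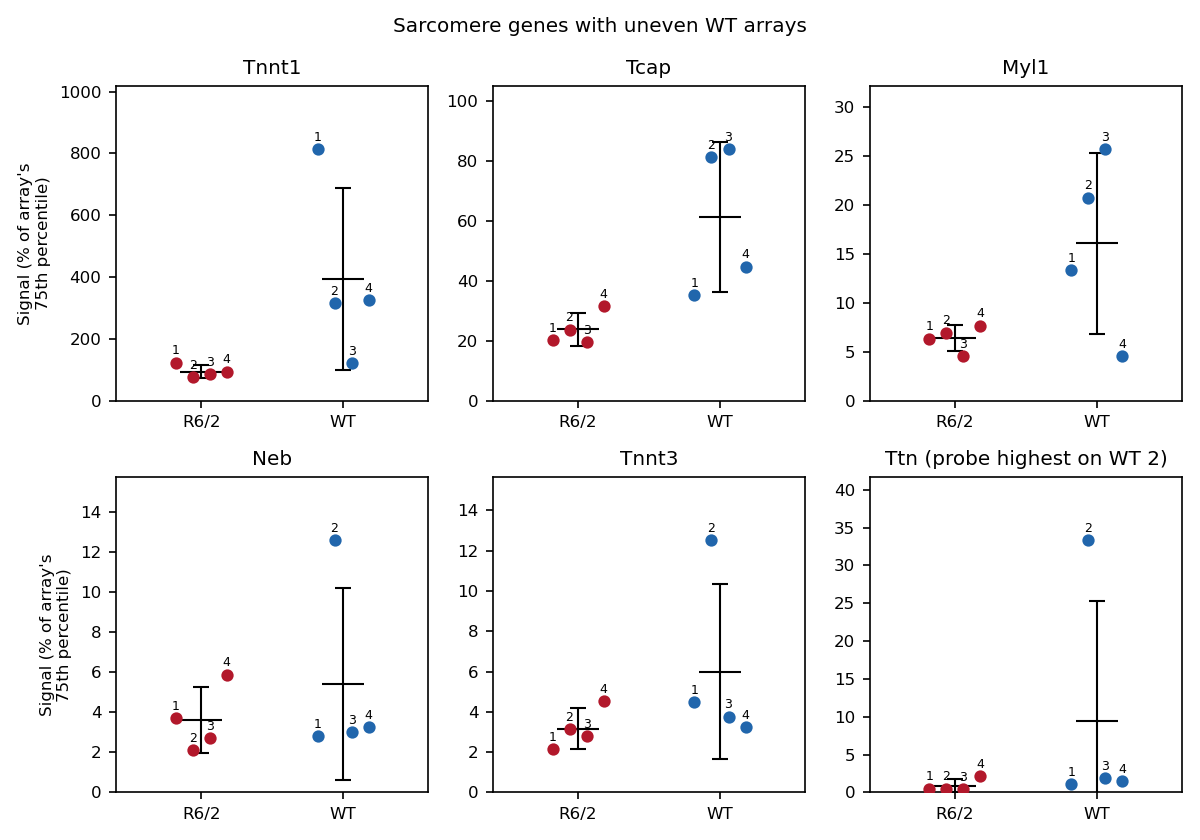
Each panel gives the signal, as a percent of the array's 75th percentile, of a gene whose WT arrays were uneven, on the 4 R6/2 arrays (red, left) and the 4 WT arrays (blue, right), with array numbers, mean and SD; the Ttn panel is the titin probe highest on WT array 2 and was not tested. WT array 1 leads for Tnnt1 at 814, and WT array 2 stands alone for Neb at 12.6, Tnnt3 at 12.5 and Ttn at 33.3.

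Of the 5 sarcoplasmic reticulum genes, 4 were tested and 0 passed in limma's fit (3 at an unadjusted p under 0.05), with a median of -0.30. Sln, sarcolipin, which restrains the SERCA pump, gave 13.9, 11.3, 10.7 and 12.4 in R6/2 and 19.5, 15, 16.1 and 17.0 in WT, -0.48 ± 0.11 (limma adjusted p = 0.0820). Atp2a1, the SERCA pump of fast muscle, gave 17.4, 14.6, 15.8 and 16.8 in R6/2 and 20.6, 22.4, 17.6 and 19.6 in WT, -0.31 ± 0.10 (limma adjusted p = 0.160). Both sets were without overlap. The calsequestrins Casq1 and Casq2 differed by 0.17 ± 0.38 and -0.29 ± 0.10. A probe of Trdn, triadin, which anchors calsequestrin to the release channel, was above background on 0 of 4 R6/2 arrays and 3 of 4 WT arrays. It gave 0.628, 0.579, 0.556 and 0.587 in R6/2 and 2.45, 10.3, 3.76 and 2.92 in WT. Read against the floor described for Myh1, it was 2.29-fold lower in R6/2. The other 2 Trdn probes were each above background on 1 R6/2 array.

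Set side by side, the heavy chains had the lowest median (-0.93), then the Z-disc (-0.59) and the thin filament (-0.49). The myosin-binding proteins (-0.46), the sarcoplasmic reticulum (-0.30) and the light chains (-0.11) followed. The M-band had 1 tested gene, at -0.29. With normexp background correction the median over all 35 genes was -0.19 in place of -0.46. The offset in that correction by itself shrinks the differences of dim genes, and its share was not separated from that of background removal. The sizes of these medians and the gaps between classes are uncertain. Detection differed as well: 7 of 8 heavy chains and 10 of 11 thin filament genes were tested, against 4 of 9 at the Z-disc. Of the 8 genes that fell, 4 were among 7 tested heavy chains, 1 among 6 light chain and kinase genes and 1 among 3 myosin-binding proteins. The thin filament gave 1 of 10 and the Z-disc 1 of 4. The differences between classes were not tested, since the genes were picked on this contrast.

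Muscle genes outside the list were read from the same fit. Of 40 other sarcomere and myofibril genes, 30 were tested, 1 rose (Myl6b, a light chain also made outside muscle, 258, 281, 254 and 306 in R6/2 and 208, 185, 178 and 203 in WT, limma adjusted p = 0.0419), 0 fell and the median was -0.03. Of 31 skeletal muscle genes outside the sarcomere, 15 were tested and 0 called by limma (5 at an unadjusted p under 0.05), with a median of -0.24, and 11 were above background on no array, among them Ckm, Myod1, Myog and Myf6. Pgam2, the muscle phosphoglycerate mutase, came near with -0.50 ± 0.14 (limma adjusted p = 0.115). Of 16 cardiac genes 9 were tested and 0 called by limma (3 at an unadjusted p under 0.05), with Nkx2-5, Tbx5, Tbx20 and Hand2 above background on no array. The summed signal of the skeletal list ran from 1055 to 1137 on R6/2 arrays and 1235 to 1376 on WT arrays. Sums over a list, here and for the neuron markers, are led by the brightest probes and do not speak for every gene. In the skeletal list Cox6a2 was the brightest. The 16 smooth muscle and mural genes and the 19 non-muscle actomyosin genes tested gave 0 limma calls each (2 and 2 at an unadjusted p under 0.05), with medians of -0.06 and -0.08; Tagln, a smooth muscle actin-binding protein, came nearest at -0.65 ± 0.14 (limma adjusted p = 0.0614).

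Calcium release genes outside the list did include called ones. Ryr1, the ryanodine receptor of skeletal muscle, gave 58.4, 46.8, 49.1 and 30.3 in R6/2 and 186, 242.5, 169.7 and 236.5 in WT, -2.20 ± 0.21 (limma adjusted p = 0.00901). Jsrp1, a junctional reticulum protein, gave 194, 233, 205 and 228 in R6/2 and 346, 429.8, 326 and 434 in WT, -0.83 ± 0.12 (limma adjusted p = 0.0246). They were the 2 that fell among 18 tested genes of excitation-contraction coupling; 0 rose, and the median was -0.11.

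All markers of cortex, choroid plexus, ependyma, fibroblasts, thalamus and septum on the array were above background on at least 4 arrays. Detection therefore does not check the tissue label. By the same rule all 30 identity genes of striatal projection neurons were detected. That list also differed, with 12 fallen, 0 risen, 28 of 30 below 0 and a median of -0.50, and a summed signal of 89230 to 116790 on R6/2 arrays and 148070 to 174380 on WT arrays; Penk, proenkephalin, had -1.11 ± 0.11 (limma adjusted p = 0.0102). Its part in the sarcomere results was not tested. Markers of cortex, choroid plexus and fibroblasts gave 0 limma calls among 20, 15 and 15 tested genes (3, 0 and 0 at an unadjusted p under 0.05), with medians of -0.18, -0.15 and -0.04, and ependymal and cilia genes 2 rises among 17 (Cfap206 and Enkur) with a median of 0.24.

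The 8 arrays had 61.5% to 67.7% of their probes well above background. They lay on 1 slide in 1 scan, with R6/2 in one row of the slide and WT in the other, so slide row and genotype cannot be told apart.

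The stretch before the transcript start was read for the 9 called genes from RefSeq on GRCm38.p6, 250 bases each. These 5 motifs were searched on both strands: the E-box (CANNTG), the M-CAT element (CATTCC), the TATA box (TATAAA), the MEF2 site and the CArG box; motifs may overlap. An E-box stood in 7 of the 9 genes and in 66.2% of all 32851 such stretches; an M-CAT element in 3 (Myh7, Tnnc1 and Tnnt2) and in 12.6%; a TATA box in 1 (Myh8) and in 12.4%; a MEF2 site in 2 (Mybpc3 and Myh8) and in 1.69%; and a CArG box in 0 and in 1.47%. A gene with several starts in the table counted when any of them held the motif. Shown are Mybpc3, which had a MEF2 site beside an E-box, and Tnnt2 (the upstream of its starts in the table), the one gene that rose, with every motif match in capitals, and Myl4, which held no match and had the largest difference.
Mybpc3 at chr2:91117894-91118143 (+): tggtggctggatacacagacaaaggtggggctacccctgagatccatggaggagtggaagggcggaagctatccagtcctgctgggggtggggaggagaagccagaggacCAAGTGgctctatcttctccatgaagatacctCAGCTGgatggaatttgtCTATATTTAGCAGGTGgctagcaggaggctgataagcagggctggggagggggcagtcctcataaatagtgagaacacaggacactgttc
Tnnt2 at chr1:135836084-135836333 (+): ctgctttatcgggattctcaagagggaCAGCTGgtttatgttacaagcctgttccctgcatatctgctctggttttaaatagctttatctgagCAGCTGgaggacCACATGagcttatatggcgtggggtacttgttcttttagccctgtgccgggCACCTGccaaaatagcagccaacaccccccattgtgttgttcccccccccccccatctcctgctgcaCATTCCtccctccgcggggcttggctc
Myl4 at chr11:104550413-104550662 (+): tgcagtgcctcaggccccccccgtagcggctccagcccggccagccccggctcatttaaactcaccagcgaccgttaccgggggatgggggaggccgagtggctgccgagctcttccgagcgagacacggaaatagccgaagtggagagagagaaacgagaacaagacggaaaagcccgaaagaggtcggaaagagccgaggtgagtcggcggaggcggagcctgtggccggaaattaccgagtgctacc
The Mybpc3 stretch held 3 E-boxes and 1 MEF2 site, and the Tnnt2 stretch 4 E-boxes and 1 M-CAT element. These matches describe letters only.

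The variation of the called genes between arrays of the same genotype was compared with that of all tested genes. After taking away each genotype's mean and correlating over the 8 arrays, the 5 nearest genes to each called gene had r between 0.940 and 0.997; the nearest to Myl4 was Plrg1 (r = 0.996) and to Mybpc3 was Pex7 (r = 0.990), and none of the 45 was a sarcomere gene. These are the highest of 16881 correlations over 8 arrays that share one slide, and are given as a description. With only 35 sarcomere genes among those tested, the absence of any among the 45 says little.

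**Figure D5:**
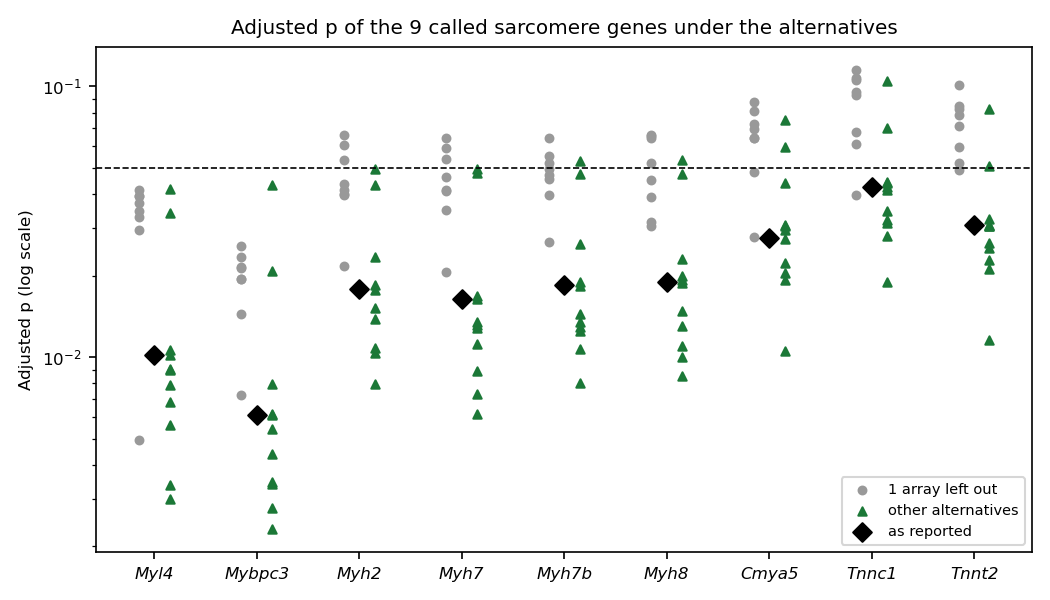
The plot gives the adjusted p, on a log axis, of the 9 called genes as reported (diamonds), with 1 array left out (circles) and under the other alternatives (triangles); the dashed line is 0.05. Every point of Myl4 and Mybpc3 lies under the line, with highest values of 0.0417 and 0.0434, and each of the other 7 genes has points above it.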

How the data were processed

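Signals of 8 Agilent 1-colour arrays were used as the authors deposited them. Per the file headers, the intensity of each spot came from Agilent Feature Extraction 10.7.3.1, which detrended the processed signal, replaced values near background and set the flags; positions are on mm9. The authors' deposited table also holds normalized log2 values, which equal the log2 of the scanner signal minus a constant for each array, an unadjusted and an adjusted p-value, and a fold change for each probe; how these were tested is not given in the sources used here. Each column of log2 values had a median between -3.48 and -3.27 and ran in the direction of the scanner values.

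From there, outlier spots were left out, each array's log2 processed signal was scaled by its 75th percentile, spots of a probe were averaged, and probes well above background on at least 4 of 8 arrays were fitted with limma 3.58.1 in R 4.3.3 (lmFit and eBayes, R6/2 against WT, adjustment over all 35121 probes, called at 0.05). A gene was read from its brightest tested probe. Genes were named through transcript accession (26762 probes), gene number (5056) or the scanner file's symbol (373); 23490 probes stayed unnamed. The procedure was run on simulated data in which the arrays varied independently. It therefore does not check the effect of the correlation between same-numbered arrays given below. The number of arrays limits the precision.

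The 48 genes, the other gene lists and the tests were chosen with earlier results of these data known. All 48 genes may be named; array values are given for those called, those whose genotypes did not overlap and the 2 of smallest p in each class, and, outside the list, the called genes or the 2 of smallest p of each list were considered.

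The labels number the arrays 1 to 4 in each genotype, and the number is also the array's column on the slide. Deviations of same-numbered arrays from their genotype means correlated at 0.286, 0.260, 0.345 and 0.147, and 8 of 8 arrays correlated best with their own number, so a fit with the number as a block was made as an alternative. Other alternatives were normexp background correction (offset 50), quantile scaling, other filters and probe rules, array weights, the authors' deposited values, outlier spots kept, and each array left out. Promoter stretches came from RefSeq on GRCm38.p6, and no genome of the files' build was used.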

Additional observations from a re-analysis of the deposited data

Results flagged for a closer look

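In groups of 4 arrays, an array was singled out when its gap to the nearest of the others, as a share of the group's range, passed Dixon's critical value. It picked out 4 of the 70 groups looked at (35 genes in each genotype), while chance alone picks about 1 in 20. Tnni3, cardiac troponin I, was high on R6/2 array 4 (9.01, the next at 3.88). Tnnt2, cardiac troponin T, was low on R6/2 array 3 (42.0, the next at 54.8), still above every WT array. Neb, nebulin, was high on WT array 2 (12.6, the next at 3.24), and so was Ldb3, a Z-disc adaptor (73.0, the next at 42.0).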

How the results depend on the processing

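Myl4 and Mybpc3 kept their calls in all 19 alternatives; Myh7, Myh2, Myh7b, Myh8, Cmya5, Tnnc1 and Tnnt2 kept their direction in all that were run on them but not their calls. The sarcomere genes called numbered 9 as reported, 5 with no filter on dim probes and 2 to 9 with 1 array left out. All genes called numbered 330 as reported, 635 with normexp correction, 81 with no filter and 177 with the replicate number as a block. They numbered 589 with array weights, 518 with the mean of a gene's probes and 77 to 319 with 1 array left out. Without the filter more probes share the adjustment, and leaving out an array leaves fewer samples. The causes of these changes in number were not tested. The block took away the calls of Cmya5, Tnnc1 and Tnnt2 and left 6 sarcomere genes called; it changed no other sarcomere call. Sarcomere genes above background numbered 35 as reported, 42 when 1 array was enough and 28 when all 8 were required.

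Signs turned only in genes that were not called, and the cause was not tested: Neb, whose probes disagree, to 0.91 with the filter on all 4 arrays of a genotype and 0.28 with the mean of its probes, and Mylk2 to 0.0069 with array weights. With 1 array left out, Neb ran between -0.63 and 0.92 (highest without WT array 2), Mylk2 between -0.30 and 0.30 (above 0 without R6/2 array 1, at 0.0083, or WT array 1), Myh6 between -0.10 and 0.019 and Myl3 between -0.20 and 0.0072 (both highest without R6/2 array 2), and Casq1 between -0.086 and 0.48 (lowest without R6/2 array 4). Tnnt1 gained a call with array weights (adjusted p = 0.0436 in limma). All 8 arrays lay on 1 slide in 1 scan, so the fit with slide or scan as a block was not run. Myh2, Mybpc3 and Tnnc1 are dim. With normexp correction their differences were -0.59, -0.67 and -0.45, against -1.84, -1.58 and -0.93 as reported. The offset of 50 in that correction by itself shrinks such differences, and its share was not separated. The size of a dim gene's difference is uncertain.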
